A study of Mus musculus with 4 samples.

Results

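The collagen chains are the genes whose products wind into the triple helices of the extracellular matrix. They were taken as every gene whose symbol is Col, a number, the letter a and a number, and whose probe sets the platform annotation gives to that gene alone, which gave 42 of 18193 measured genes and 82 of 34945 named probe sets. By the class of molecule they build, 11 chains were fibrillar, 6 belonged to the basement membrane network of type IV, 9 were FACIT chains (fibril-associated collagens with interrupted triple helices), 5 belonged to type VI, which forms beaded filaments, 4 were transmembrane, 2 were multiplexins, 3 were short-chain network formers and 2 (Col7a1 and Col26a1) fell in none of these. Expression was measured on Affymetrix arrays in satellite cells, the stem cells of skeletal muscle, sorted for the surface proteoglycan syndecan-4 from hindlimb muscle of C57BL/6J mice. The aged mice were 20 to 25 months old and the young mice 3 to 6 months old, and each of the 2 pools at either age was put on 1 array. No other treatment or allele is given in the labels. A pool averages 4 to 8 mice by the series text and 6 to 8 by the sample text, and its RNA was amplified in 2 rounds with T7 polymerase. The p-values below measure the spread between pools, with 2 pools on each side.

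Collagen chains assemble as trimers inside the cell, are hydroxylated and chaperoned in the endoplasmic reticulum, and after secretion form fibrils, sheets or filaments. In muscle, fibroblast-like stromal cells make most of the fibrillar matrix, and the satellite cell lies between the fibre membrane and a basement membrane built on type IV collagen and laminin. Mouse studies have tied collagen V made by satellite cells to their quiescence through the calcitonin receptor, and collagen VI of the niche to their self-renewal.

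Each value is a log2 value relative to the median of its probe set over the 4 arrays, so that no absolute level is known. For a single probe set 0 is the middle of the 4 pools. The mean over several probe sets of a gene need not have its middle at 0. The base of the logarithm is not stated and is taken as 2. Differences are aged minus young, the ± after a difference is its standard error from limma (n = 2 pools per age), and adjusted p-values are Benjamini-Hochberg values over all 18193 genes. No chain can be set against another by level.

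None of the 42 chains differed between the ages beyond the spread between pools. With limma, 0 of the 42 had an adjusted p under 0.05, and 0 had an unadjusted p under 0.05. Over all genes, 9.04% had an unadjusted p under 0.05, 2.85% higher in aged cells and 6.19% lower, and 0% passed after adjustment. The smallest p among the chains was that of Col20a1 (unadjusted p = 0.0894, adjusted p = 0.650 with limma). The chains moved by small amounts: the median size of the difference, whatever its sign, was 0.30 on the log2 scale over the chains and 0.37 over all genes. Only Col24a1 and Col17a1 differed by 1 or more, as did 14.6% of all genes, and in 31 of 42 chains the difference was smaller than its standard error. The median standard error was 0.42 for the chains and 0.43 for all genes. The limma fit draws each error toward a common value, with 3.56 prior against 2 residual degrees of freedom. Their closeness therefore does not show equal precision.

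The intervals show how much change the arrays leave possible. In 37 of the 42 chains the 95% interval of the difference lay between -2 and 2 on the log2 scale. The upper end lay below 1, which is a 2-fold rise, in 8 chains, and the lower end lay above -1, a 2-fold fall, in 25.

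By sign, 30 chains were higher and 12 lower in aged cells, which is 71.4% higher, against 53.8% of all genes. The median log2 difference of the chains was 0.28, against 0.05 for all genes. The ages did not overlap in 12 chains. In 10 of them (23.8%) both aged pools lay above both young pools, as in 19.9% of all genes, and in 2 (4.76%) both lay below, as in 16.9% of all genes. The share above is near that of all genes. A test of a single chain over 2 against 2 pools by exact permutation cannot go below p = 0.333, two-sided.

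**Figure D1:**
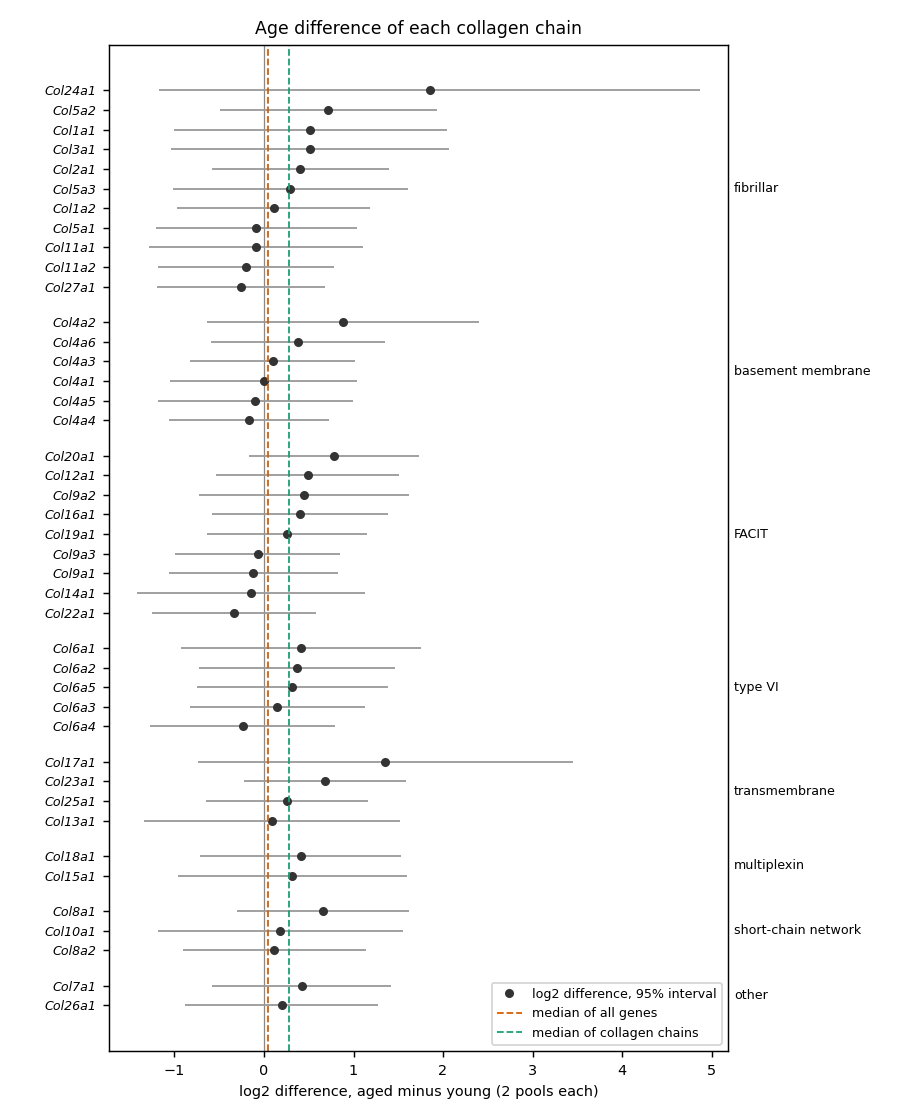
Log2 difference between aged and young pools for each of the 42 collagen chains, grouped by class, with 95% intervals from limma. The dashed lines mark the median of all genes (0.05) and of the chains (0.28); every interval crosses 0.

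The excess of higher chains differed with the young pool it was set against. Young 1 was the lowest of the 4 pools in 26 of 42 chains (61.9%), against 31.2% of all genes, and it was the highest in 0. The median value of the chains was 0.11 in aged 1 and 0.05 in aged 2, against -0.28 in young 1 and 0.14 in young 2. By the median young 2 was the highest of the 4 pools. By the mean of the chains it was not: the mean was 0.26 in aged 1 and 0.096 in aged 2, against -0.31 in young 1 and 0.086 in young 2, so that young 2 lay just below aged 2. Young 1 was lowest by both measures. Without young replicate 1, 19 of 42 chains were higher in aged cells and their median difference was -0.05, when 50.1% of all genes were higher. Without young replicate 2, 38 of 42 were higher and the median was 0.44, when 58.7% of all genes were higher. Without aged replicate 1, 27 of 42 were higher (median 0.17), when 53.3% of all genes were higher. Without aged replicate 2, 27 of 42 were higher (median 0.21), when 49.7% of all genes were higher. With 2 young pools, which of them is the unusual one cannot be told.

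By the class median, young 1 was the lowest pool in each of the main classes. Chain by chain, it was lowest in 5 of 11 fibrillar, 3 of 6 basement membrane and 5 of 9 FACIT chains. It was lowest in 5 of 5 type VI and 3 of 4 transmembrane chains. Over all genes the median of young 1 was also the lowest of the 4 pools, at -0.06. With arrays centred on their median, 30 of 42 chains were higher in aged cells (median 0.24), when 50.8% of all genes were higher. With quantile normalization, 31 of 42 were higher (median 0.30), when 52.8% of all genes were higher. The fibrillar median was 0.15 and 0.05 in aged 1 and aged 2, against -0.33 and 0.20 in young 1 and young 2. The type VI median was -0.10 and 0.05 in aged 1 and aged 2, against -0.43 and 0.13 in young 1 and young 2. The transmembrane class was the only main class whose aged medians, 0.34 and 0.20, both lay above its young medians, -0.41 and 0.10.

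**Figure D2:**
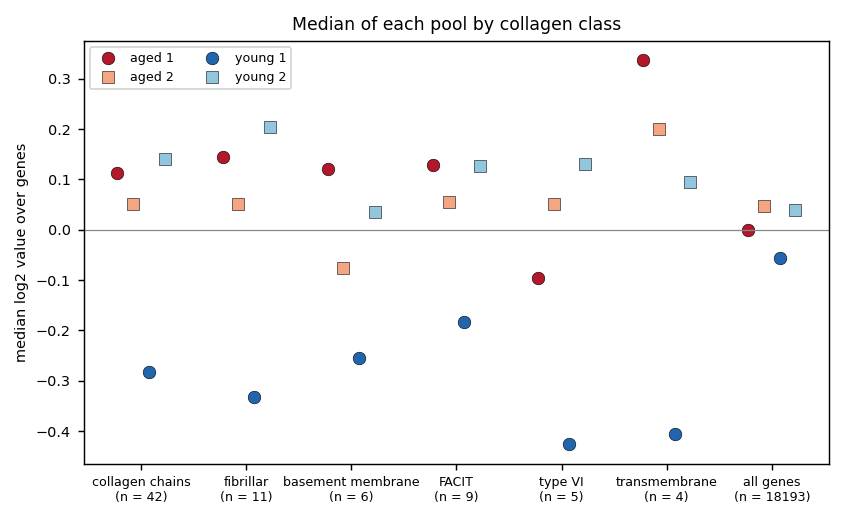
Median log2 value over the genes of each collagen class, and over all genes, in each of the 4 pools; the number of genes is under each name. Young 1 is the lowest pool in every collagen group shown, while young 2 lies between or above the aged pools in every class shown but the transmembrane one.

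Type I collagen, the main fibril of muscle connective tissue, is a trimer of chains from Col1a1 and Col1a2, and type III, the reticular fibril collagen, is a trimer of Col3a1. Col1a1 stood at 1.21 and -0.36 in aged 1 and aged 2, against -0.37 and 0.18 in young 1 and young 2. Its difference was 0.52 ± 0.61 (adjusted p = 0.905 with limma). Aged 1 lay above both young pools and aged 2 between them, and without aged replicate 1 the difference was -0.27.

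Col1a2 stood at -0.20 and 0.58 in the aged pools, against -0.04 and 0.20 in the young pools, a difference of 0.11 ± 0.43 (adjusted p = 0.978 with limma). Col3a1 stood at -0.65 and 1.02 in the aged pools, against -0.52 and -0.14 in the young pools, a difference of 0.51 ± 0.62 (adjusted p = 0.907 with limma). As gene means, both chains were highest in aged 2 and lowest in aged 1, whereas Col1a1 was highest in aged 1. These orders rest on probe sets that disagree. A first Col1a1 probe set stood at 2.29 and -0.92 in the aged pools, against -0.61 and 0.61 in the young pools. The other stood at 0.12 and 0.20 in the aged pools, against -0.12 and -0.26 in the young pools, with aged 2 the highest. The probe sets of Col3a1 differed by 1.34 and -0.31 and those of Col1a2 by -1.58 to 1.68. Without aged replicate 1, Col3a1 differed by 1.35, and without aged replicate 2 by -0.32. The promoters of Col1a2 and Col3a1 are shown because these chains had the same order of pools as gene means. The 250 bases before each start are from RefSeq (GRCm38.p6), with GGGCGG or CCAAT, read on either strand, in capitals; the Col1a2 window is chr6:4505368-4505617 on the + strand and the Col3a1 window chr1:45311288-45311537 on the + strand.
Col1a2: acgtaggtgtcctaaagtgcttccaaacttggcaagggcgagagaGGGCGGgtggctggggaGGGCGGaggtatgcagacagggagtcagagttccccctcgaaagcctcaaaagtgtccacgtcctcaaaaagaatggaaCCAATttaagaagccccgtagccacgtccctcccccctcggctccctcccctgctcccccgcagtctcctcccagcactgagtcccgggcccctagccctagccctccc
Col3a1: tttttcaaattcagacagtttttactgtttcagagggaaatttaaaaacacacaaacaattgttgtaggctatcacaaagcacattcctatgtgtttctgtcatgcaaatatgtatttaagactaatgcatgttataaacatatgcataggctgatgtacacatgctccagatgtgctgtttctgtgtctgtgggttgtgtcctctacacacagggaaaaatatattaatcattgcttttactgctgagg

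The Col1a2 window held 2 copies of GGGCGG and 1 of CCAAT, and the Col3a1 window held neither. Among the 36 promoter windows that matched 33 of the chains, 58.3% held GGGCGG on either strand, against 32.7% of all 32851 windows, and 36.1% held CCAAT, against 33.8% of all windows. These counts describe letters in a window and were not set against the age differences.

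Type V chains sit inside type I fibrils and set their diameter. Col5a2 was higher in both aged pools, at 0.47 and 0.56, against -0.76 and 0.35 in the young pools, a difference of 0.72 ± 0.49 (adjusted p = 0.801 with limma). Its young pools lay farther apart than the difference between the ages, which was 0.17 without young replicate 1 and 1.27 without young replicate 2. Col5a1 stood at 0.24 and -0.44 in the aged pools, against -0.33 and 0.29 in the young pools (-0.08 ± 0.45), and Col5a3 at -0.38 and 0.62 in the aged pools, against -0.58 and 0.23 in the young pools (0.29 ± 0.52). For both the ages overlapped. The calcitonin receptor gene Calcr, the partner of collagen V in the mouse work above, stood at 0.23 and -0.43 in the aged pools, against -0.23 and 0.42 in the young pools (-0.20 ± 0.45).

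The fibrillar chain with the largest difference was Col24a1, known from developing bone. It stood at 3.75 and -0.10 in the aged pools, against 0.10 and -0.14 in the young pools, so its difference of 1.85 ± 1.21 (3.60-fold, adjusted p = 0.792 with limma) rests on aged 1 alone. Without aged replicate 1 the difference was -0.08. At the other end Col27a1, a cartilage fibril chain, stood at 0.15 and -0.21 in the aged pools, against 0.10 and 0.34 in the young pools (-0.25 ± 0.38). The cartilage chains Col2a1 (0.40 ± 0.40), Col11a1 (-0.09 ± 0.48) and Col11a2 (-0.20 ± 0.39) differed by little more than their standard errors or less. Over the 11 fibrillar chains 7 were higher and 4 lower, with a median of 0.29. Without young replicate 1 that median was -0.02 and without aged replicate 1 it was -0.05.

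**Figure D3:**
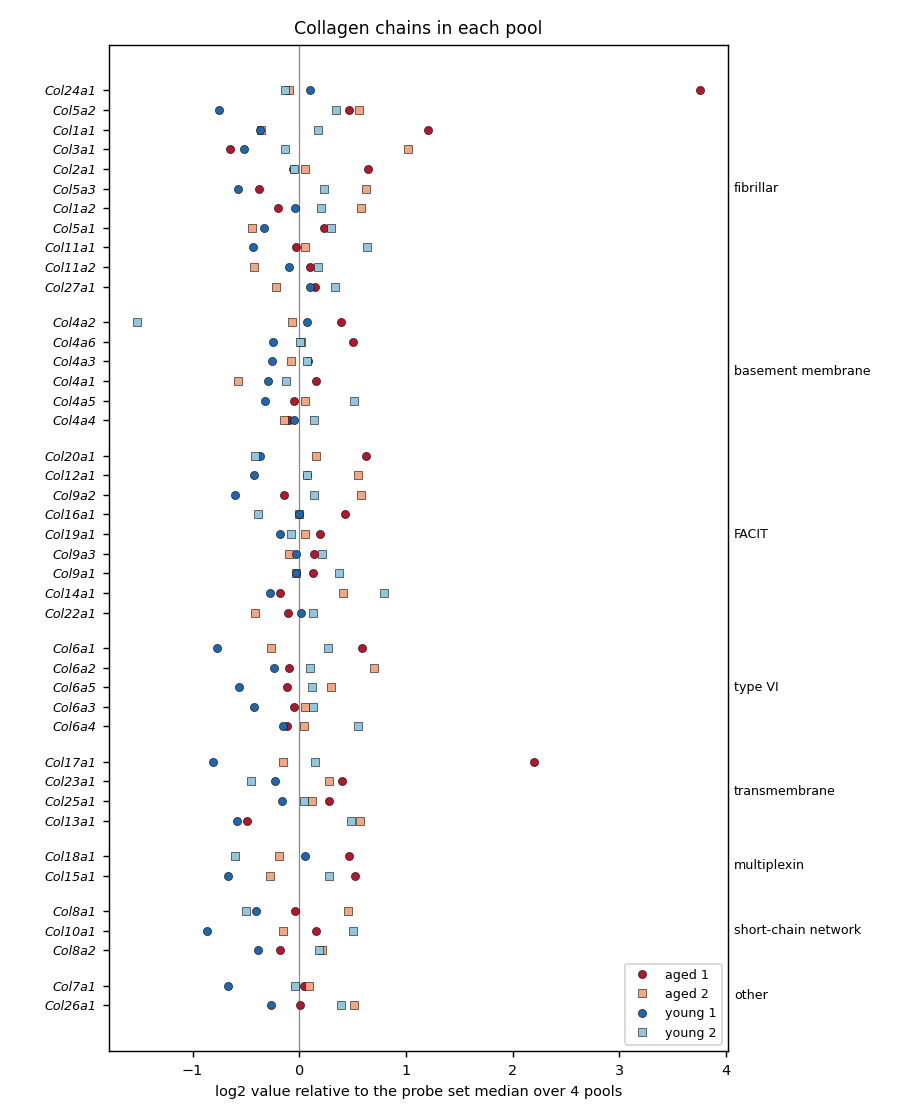
Log2 value of every collagen chain in each of the 4 pools, relative to the probe set median, by class and sorted by age difference within a class. Young 1 lies at the left in most rows, and the isolated points at 3.75 (Col24a1) and 2.20 (Col17a1) are both from aged 1.

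The type IV chains form the sheet of the basement membrane that covers each fibre and its satellite cells, and Col4a1 and Col4a2 build its common trimer. The pair lies head to head on chromosome 8. The 22 bases between and including their annotated starts are printed from RefSeq (GRCm38.p6, chr8:11312805-11312826, + strand) because the 2 genes share them, with GGGCGG in capitals.
Col4a2 and Col4a1: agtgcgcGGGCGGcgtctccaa

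Despite the shared start region, the arrays gave the pair different values. Col4a1 stood at 0.16 and -0.57 in the aged pools, against -0.29 and -0.12 in the young pools, a difference of -0.0029 ± 0.42. Col4a2 stood at 0.39 and -0.07 in the aged pools, against 0.07 and -1.52 in the young pools, a difference of 0.89 ± 0.61 (adjusted p = 0.806 with limma). Young 2 alone was low for Col4a2, and without young replicate 2 the difference was 0.09. Without young replicate 1 it was 1.68. The 2 probe sets of Col4a1 differed by 0.71 and -0.71 and cancelled in the gene mean, and Col4a2 had 1 probe set. The 95% intervals, -1.05 to 1.04 for Col4a1 and -0.63 to 2.41 for Col4a2, overlapped.

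The remaining type IV chains, which build the basement membranes of kidney, lung and other specialised tissues, differed by less than Col4a2 and more than the mean of Col4a1. Col4a6 was the highest of them at 0.38 ± 0.39 and Col4a4 the lowest at -0.17 ± 0.36. Col4a4 stood at -0.10 and -0.15 in the aged pools, against -0.05 and 0.14 in the young pools, and was the only type IV chain lower in both aged pools. Col4a3 (0.10 ± 0.37) and Col4a5 (-0.10 ± 0.44) had overlapping ages. Over the 6 chains 3 were higher and 3 lower, with a median of 0.05, the same to 2 decimals as that of all genes.

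FACIT chains coat fibrils and link them to other matrix. Col20a1 had the smallest p of all chains. It stood at 0.62 and 0.16 in aged 1 and aged 2, against -0.37 and -0.42 in young 1 and young 2, a difference of 0.78 ± 0.38 (1.72-fold, 95% interval -0.17 to 1.73). The ages did not overlap, and its 4 probe sets differed by 0.19 to 1.69, all higher in aged cells.

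Col12a1, a FACIT of tendon and muscle connective tissue, stood at 0.08 and 0.55 in the aged pools, against -0.42 and 0.07 in the young pools. Its difference was 0.49 ± 0.41, with 4 of 4 probe sets higher (0.28 to 0.66). Col14a1, of the same tissues, stood at -0.18 and 0.41 in the aged pools, against -0.28 and 0.80 in the young pools (-0.14 ± 0.51), and its 3 probe sets ran from -0.66 to 0.53. Col19a1, found in mouse muscle development, was slightly higher in both aged pools, at 0.20 and 0.06, against -0.18 and -0.08 in the young pools (0.25 ± 0.36).

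Col22a1, the collagen of the myotendinous junction, was the chain with the largest negative difference. It stood at -0.11 and -0.42 in the aged pools, against 0.02 and 0.13 in the young pools, a difference of -0.33 ± 0.37 (1.26-fold lower, 95% interval -1.25 to 0.58). It and Col4a4 were the 2 chains with both aged pools below both young pools. The type IX chains of cartilage stood at -0.12 ± 0.38 (Col9a1), 0.45 ± 0.47 (Col9a2) and -0.07 ± 0.37 (Col9a3), and Col16a1 at 0.41 ± 0.39. Over the 9 FACIT chains 5 were higher and 4 lower, with a median of 0.25, which came to 0.08 when young 1 was left out and to 0.09 when aged 2 was.

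Type VI collagen forms a filament network around muscle fibres, and its core trimer needs Col6a1, Col6a2 and Col6a3. All 5 measured type VI chains were lowest in young 1. Col6a1 stood at 0.58 and -0.27 in the aged pools, against -0.77 and 0.27 in the young pools (0.41 ± 0.54). Col6a2 stood at -0.10 and 0.70 in the aged pools, against -0.24 and 0.10 in the young pools (0.37 ± 0.44). Col6a3 stood at -0.05 and 0.05 in the aged pools, against -0.43 and 0.13 in the young pools (0.15 ± 0.39). In each of the 3 core chains young 2 lay between the aged pools or above them, so the ages overlapped.

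Col6a5 (0.32 ± 0.43) and Col6a4 (-0.24 ± 0.41), chains that can take the place of Col6a3, also had overlapping ages. Col6a4 was the only type VI chain with a negative difference. The median of the 5 chains was 0.32. Without young replicate 1 it was -0.11, and the differences of Col6a1, Col6a2 and Col6a3 were then -0.11, 0.20 and -0.13.

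Transmembrane collagens sit in the cell surface. Col23a1 had the next smallest p after Col20a1 (unadjusted p = 0.112, adjusted p = 0.697 with limma). It stood at 0.40 and 0.28 in the aged pools, against -0.23 and -0.46 in the young pools, a difference of 0.68 ± 0.36 (1.61-fold, 95% interval -0.22 to 1.59). Its 3 probe sets differed by 0.28 to 1.21. As a gene value, Col23a1 kept its sign and a size of at least 0.57 under all 13 alternatives.

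Col17a1, the hemidesmosome collagen of epithelia, stood at 2.20 and -0.15 in the aged pools, against -0.81 and 0.15 in the young pools. The difference of 1.36 ± 0.84 (2.56-fold) was 0.18 without aged replicate 1. Col25a1, which in mice is needed for motor innervation of muscle, stood at 0.28 and 0.12 in the aged pools, against -0.17 and 0.04 in the young pools (0.26 ± 0.36), and both of its probe sets were higher. Col13a1, a collagen of the neuromuscular junction, stood at -0.49 and 0.57 in the aged pools, against -0.58 and 0.49 in the young pools (0.09 ± 0.57). All 4 transmembrane chains were higher in aged cells, with a median of 0.47.

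The multiplexins lie in basement membrane zones, and Col18a1 yields the fragment endostatin. Col15a1, whose loss in mice causes a mild myopathy, stood at 0.52 and -0.28 in the aged pools, against -0.67 and 0.28 in the young pools (0.31 ± 0.51). Col18a1 stood at 0.46 and -0.19 in the aged pools, against 0.05 and -0.60 in the young pools (0.41 ± 0.45), and its 2 probe sets differed by -0.15 and 0.97.

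Among the short-chain network formers, Col8a1, a vessel wall chain, stood at -0.04 and 0.45 in the aged pools, against -0.41 and -0.50 in the young pools. Its difference was 0.66 ± 0.38 (adjusted p = 0.743 with limma) without overlap of the ages. Its partner Col8a2 (0.12 ± 0.41) and the growth plate chain Col10a1 (0.18 ± 0.55) had overlapping ages. Col7a1, which forms the anchoring fibrils of skin, stood at 0.42 ± 0.40 and Col26a1 at 0.20 ± 0.43.

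Probe sets of a chain often disagreed. Of the 27 chains with 2 or more probe sets, 14 (51.9%) had probe sets in both directions, as did 57.3% of all genes with 2 or more. The opposition was widest in Col1a2. A first Col1a2 probe set stood at 0.53 and 1.68 in the aged pools, against -0.62 and -0.53 in the young pools, a difference of 1.68 ± 0.55. A second stood at -0.55 and -0.64 in the aged pools, against 1.42 and 0.55 in the young pools, a difference of -1.58 ± 0.49. In a limma fit across all single probe sets, added after seeing the data, both had an unadjusted p under 0.05, in opposite directions (adjusted p = 0.550 and 0.516), and the third Col1a2 probe set differed by 0.22. The near-zero mean of Col1a2 is therefore the balance of opposed probe sets, and which of them follows the Col1a2 transcript was not tested.

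In that fit 4 of 82 collagen probe sets had an unadjusted p under 0.05, 3 higher and 1 lower, against 7.94% of all named probe sets (2.56% higher and 5.37% lower), and 0 passed after adjustment over all 34945 (smallest adjusted p = 0.496). Besides those of Col1a2 they were 1 probe set of Col8a1 (1.55 ± 0.46) and 1 of Col23a1 (1.21 ± 0.46). The other probe sets of Col8a1 ran from -0.25 to 0.69. In total 56 of the 82 collagen probe sets were higher in aged cells.

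**Figure D4:**
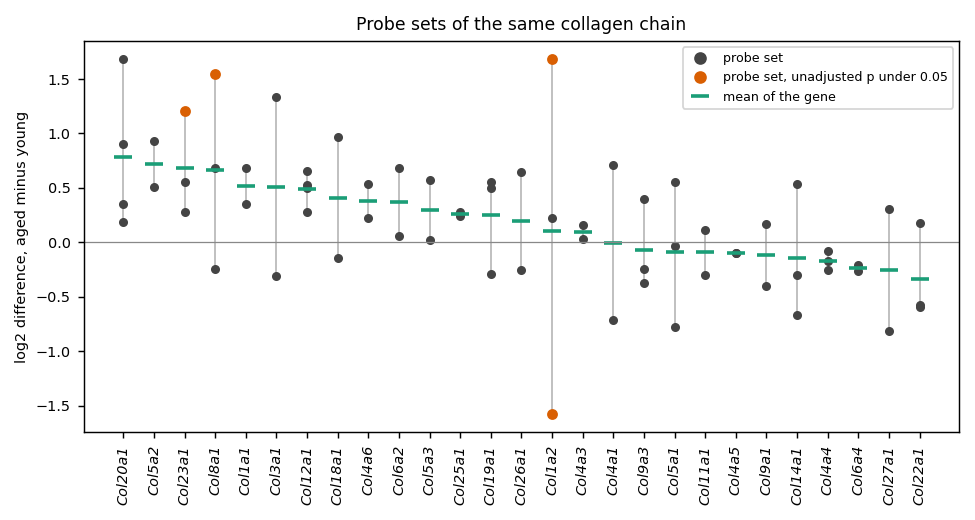
Log2 difference between aged and young pools for every probe set of the 27 collagen chains with 2 or more, with the gene mean as a bar; orange points had an unadjusted p under 0.05 in a limma fit of single probe sets. The probe sets of Col1a2 lie at 1.68, 0.22 and -1.58.

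Genes that modify, fold, cleave and crosslink collagen did not pass the test either. Of 30 measured genes on this list 21 were higher and 9 lower, with a median of 0.18, and 0 had an unadjusted p under 0.05 with limma, against 9.04% of all genes. Tll2, a procollagen C-proteinase relative, was the highest at 0.98 ± 0.45, followed by P3h4, part of a lysyl hydroxylation complex, at 0.87 ± 0.42. Serpinh1, the collagen chaperone HSP47, stood at -1.93 and 0.64 in the aged pools, against -0.02 and 0.70 in the young pools (-0.98 ± 0.87), so only aged 1 was low. Pcolce2, an enhancer of procollagen cleavage, stood at 0.04 and -0.07 in the aged pools, against 3.20 and -0.04 in the young pools (-1.59 ± 1.04), and there young 1 alone was high. The prolyl hydroxylase P4ha1 (0.44 ± 0.40), the C-proteinase Bmp1 (0.55 ± 0.40) and the crosslinking oxidase Lox (0.10 ± 0.39) were near or within 1.5 standard errors of 0.

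Collagen receptors and binding proteins stood in both directions, with 6 of 14 higher, 8 lower and a median of -0.06. Of these 2 had an unadjusted p under 0.05, both higher, against 9.04% of all genes (2.85% higher and 6.19% lower), and 0 passed after adjustment. Itga10, the alpha 10 integrin that binds collagen on chondrocytes, stood at 0.45 and 0.77 in the aged pools, against -0.45 and -0.79 in the young pools, a difference of 1.23 ± 0.38 (2.35-fold, unadjusted p = 0.0195, adjusted p = 0.399 with limma). Antxr2, a surface protein that takes up collagen VI, stood at 1.59 and 0.32 in the aged pools, against -0.32 and -0.51 in the young pools, a difference of 1.36 ± 0.52 (2.57-fold, unadjusted p = 0.0436, adjusted p = 0.525). The ages did not overlap in either gene, and each had 1 probe set.

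The discoidin domain receptors, kinases that collagen activates, did not pass the test, with Ddr1 at -0.95 ± 0.42 (adjusted p = 0.612 with limma) and Ddr2 at -0.56 ± 0.41 (adjusted p = 0.821 with limma). The 8 probe sets of Ddr1 ran from -4.32 to 0.81, and without _x_at and _s_at probe sets its difference was 0.51. The integrin chains Itga1 (0.25 ± 0.39) and Itgb1 (-0.17 ± 0.38) had overlapping ages. Adgrg6, a receptor for collagen IV, stood at 2.64 and -0.88 in the aged pools, against 0.71 and -1.51 in the young pools (1.28 ± 1.30), and Adgrg1, a receptor for collagen III, at -0.99 ± 0.47.

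Marker lists of satellite cells and of other cell types, some of which make collagen, differed in direction. Of 12 fibro-adipogenic progenitor markers, a list without collagens, 10 were higher (median 0.43), and their mean was 0.27 and 0.26 in the aged pools, against -0.31 and -0.22 in the young pools. The order of the 4 pool means was the same as for the chains, but the order of the pool medians was not. Young 1 was lowest in 7 of the 12 markers (58.3%), against 61.9% of the chains and 31.2% of all genes. All 10 pericyte and smooth muscle markers were higher (median 1.05), and their mean was 0.96 and 0.42 in the aged pools, against -0.30 and -0.69 in the young pools. In both lists the means of the 2 aged pools lay above those of the 2 young pools, as they did for the chains. For the chains the gap was narrow, at 0.096 in aged 2 and 0.086 in young 2. By the median both lists kept this split and the chains did not, as young 2 was the highest pool of the chains, at 0.14. Tenocyte markers (median -0.21, 2 of 7 higher) and endothelial markers (-0.43, 2 of 10 higher) were lower, and Schwann cell markers (0.36, 7 of 8 higher) were higher. The share lowest in young 1 was 50% of Schwann cell, 42.9% of tenocyte, 30% of pericyte and smooth muscle and 10% of endothelial markers. It was 33.3% of the genes that modify, fold, cleave and crosslink collagen. Satellite cell markers had a median of 0.0021, with 7 of 13 higher, but went far in both directions. Pax7, the transcription factor that defines these cells, stood at 1.08 and 0.90 in the aged pools, against -1.39 and -1.24 in the young pools (2.31 ± 0.36, adjusted p = 0.150 with limma). Myf5 differed by 2.56 ± 0.63 and Sdc4, the sorted surface protein, by 1.22 ± 0.53, while Des, desmin, differed by -0.88 ± 0.38. Of the 13, Pax7 and Myf5 had an unadjusted p under 0.05 with limma, both higher, and 0 passed after adjustment. Over all genes 9.04% had such a p, 2.85% higher and 6.19% lower. All 15 fibre markers were lower (median -2.82). Macrophage markers had a median of -1.10, with 1 of 10 higher, and T cell markers one of 0.65, with 5 of 5 higher. The part of these shifts in the collagen values was not tested, and with pooled bulk RNA fewer cells of a type and less RNA per cell cannot be told apart.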

How the data were processed

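The deposited table holds log2 values of 45101 probe sets on 4 arrays; what the authors did to make these log2 values is not given in the sources used here, and the base is taken from their range. Every probe set has a median of 0 over the 4 arrays within 5e-07. Array medians ran from -0.07 to 0.05. Depth does not apply to arrays, and their number limits the precision. Control probe sets (64) and probe sets with several genes (932) or none (9160) were left out. Symbols of the platform annotation were updated by Entrez ID to GRCm38.p6 names (34741 of 34945 matched). A gene's value is the mean of its probe sets. No filter on low values could be applied to centred values, so all 42 chains were tested. The 2 ages were compared in R 4.3.3 by limma 3.58.1 (a linear model with empirical Bayes variances, no variance trend, 3.56 prior degrees of freedom, two-sided, Benjamini-Hochberg over 18193 genes). The fit was also run on 20 simulated sets of 18193 genes with 200 genes changed by known sizes. Their noise was normal and drawn from the fitted variances, so they cannot show how the fit does on the real pools. Collagen classes are textbook assignments. Members, lists and the naming rule (members of each class with the largest and smallest difference, the main chains, and for other lists fixed genes and the extremes) were chosen with earlier results of these data known. Fkbp10, Adamts2, Adamts14, Loxl2 and Itga11 were not analysed here. The alternatives were leaving out each pool, a replicate block, 2 normalizations, 3 choices of probe sets, 2 variance models, symbols not updated and, added later, single probe sets.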

Additional observations from a re-analysis of the deposited data

How the results depend on the processing

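No chain passed an adjusted p of 0.05 under any of the 13 alternatives run, including the variance trend, which called 221 genes in all. At an unadjusted p under 0.05 the main count of 0 chains became 0 to 2 when a pool was left out (Col3a1 without aged replicate 1, Col17a1 and Col24a1 without aged replicate 2, Col4a2 without young replicate 1), 1 when each gene was represented by its most variable probe set (Col1a2), 1 without _x_at and _s_at probe sets (Col18a1) and 4 for single probe sets. Leaving out 1 pool, 6.62% to 9.14% of all genes were called in the same fits, and 8.54% by the most variable probe set and 8.74% without _x_at and _s_at probe sets, so that these counts lie below the share of all genes. Leaving out 1 pool, the chains higher in aged cells ran from 19 to 38 and their median from -0.046 to 0.44. The class medians then ran from -0.048 to 0.44 (fibrillar), -0.078 to 0.27 (basement membrane), 0.078 to 0.31 (FACIT), -0.11 to 0.54 (type VI) and 0.40 to 0.60 (transmembrane). Without young replicate 1 the count was 19, and without young replicate 2 it was 38. The count of biosynthesis and receptor genes at an unadjusted p under 0.05, 2 in the main setting, was 1 with quantile normalization, 1 with arrays centred on their median, 1 by the most variable probe set, and from 1 without young replicate 1 to 6 without aged replicate 2.

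The sign was kept under all 13 alternatives by 17 chains (14 higher, 3 lower) and changed for 25. By the most variable probe set the difference was -0.31 for Col3a1, -0.15 for Col18a1, -0.25 for Col26a1 and -0.036 for P4ha1. Quantile normalization gave 0.066 for Col4a1. Without _x_at and _s_at probe sets Col9a3 stood at 0.079 and Ddr1 at 0.51. The causes were not tested.

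Leaving out 1 pool gave these ranges of the log2 difference. Among fibrillar chains they were -0.27 to 1.30 for Col1a1, -0.28 to 0.50 for Col1a2, -0.32 to 1.35 for Col3a1, -0.42 to 0.26 for Col5a1, -0.21 to 0.80 for Col5a3, -0.63 to 0.44 for Col11a1, -0.46 to 0.056 for Col11a2 and -0.076 to 3.78 for Col24a1. In type IV they were -0.37 to 0.36 for Col4a1, -0.069 to 0.26 for Col4a3 and -0.51 to 0.32 for Col4a5. In type VI they were -0.11 to 0.93 for Col6a1, -0.027 to 0.77 for Col6a2, -0.13 to 0.43 for Col6a3, -0.59 to 0.11 for Col6a4 and -0.023 to 0.65 for Col6a5. Among FACIT chains they were -0.32 to 0.082 for Col9a1, -0.20 to 0.055 for Col9a3 and -0.68 to 0.39 for Col14a1. Other chains gave -0.17 to 0.40 (Col8a2), -0.50 to 0.86 (Col10a1), -0.44 to 0.62 (Col13a1), -0.16 to 0.79 (Col15a1) and -0.13 to 0.52 (Col26a1). Chains that kept their sign but moved by over 1.5 times included Col5a2 (0.17 to 1.27), Col2a1 (0.11 to 0.70), Col9a2 (0.078 to 0.82), Col4a2 (0.094 to 1.68), Col4a4 (-0.26 to -0.071), Col4a6 (0.14 to 0.62), Col7a1 (0.11 to 0.73), Col12a1 (0.24 to 0.73), Col16a1 (0.19 to 0.62), Col17a1 (0.18 to 2.53), Col18a1 (0.084 to 0.74), Col22a1 (-0.49 to -0.18), Col25a1 (0.16 to 0.36), Col27a1 (-0.43 to -0.075) and Col8a1 (0.42 to 0.91). Outside the chains the ranges were -0.48 to 3.04 for Adgrg6, -0.52 to 0.13 for Calcr, -0.37 to 0.020 for Itgb1, -0.13 to 0.32 for Lox, -3.21 to 0.030 for Pcolce2 and -2.26 to 0.30 for Serpinh1.

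The replicate block left the count of chains at an unadjusted p under 0.05 at 0 and changed no other call among the chains. Deviations of aged 1 and young 1 from their group means correlated at 0.14 over genes, and with 2 pairs the numbers were not taken to pair the pools. With 2 pools per age, a chain at the median standard error of 0.42 reached an unadjusted p under 0.05 only beyond a log2 difference of 1.06, and signal over background is unknown.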
